A study of Mus musculus with 30 samples.

Results

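The sarcomeric myosin heavy chains are the motor proteins of the thick filament of striated muscle. The 8 genes described here are the adult fast chains Myh4 (type IIb), Myh1 (type IIx) and Myh2 (type IIa), the slow chain Myh7 (type I, also the beta chain of the heart), the neonatal chain Myh8, the embryonic chain Myh3, the alpha-cardiac chain Myh6 and the slow-tonic chain Myh7b. They were chosen by name, with earlier results of these data known, and are 8 of the 56748 genes of the deposited count table, of which 56017 matched the GENCODE vM39 annotation of GRCm39 by Ensembl identifier. Each was found once, and all 8 passed the filter on low counts, which kept 17518 genes.

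Each myosin heavy chain has a head that binds actin and splits ATP and a long tail that packs into the thick filament. The chain that a fibre makes sets how fast it shortens, and fibres are typed by it, from slow oxidative type I through IIa and IIx to the fast glycolytic IIb fibres that dominate the superficial limb muscles of mice. The embryonic and neonatal chains are made during development and again in regenerating fibres, and fibres often make a pair of neighbouring chains while they change type.

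Quadriceps poly(A) RNA was sequenced for 30 mice, 1 library a mouse, to ask how an antisense treatment changes the muscle of a mouse model of myotonic dystrophy type 1. HSALR mice are homozygous for the HSA-LR20b transgene, a human skeletal actin gene that carries a long CTG repeat. The actin promoter limits the repeat to skeletal muscle, and the repeat lies in an actin gene and not in DMPK, the gene expanded in patients. Total counts ran from 13605309 to 26956558 a library.

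All mice had the FVB/N background and were 8 weeks old when treatments were injected into the tail vein, and treated mice were killed 2 weeks after the last injection. The WT group held 5 FVB/N mice without the transgene, and the NT group held 8 nontreated HSALR mice. All other groups were HSALR mice. L9 is an all-LNA antisense oligonucleotide against the CUG repeat, and pacDNA-L9 is L9 conjugated to a PEG bottlebrush polymer. It was given at 5.3 mg/kg of oligonucleotide to 4 mice (pacDNA-L9 5.3), at 21.2 mg/kg in 4 injections to 3 mice (pacDNA-L9 21.2) and at 42.4 mg/kg in 8 injections to 3 mice (pacDNA-L9 42.4). The controls were free L9 at 5.3 mg/kg (3 mice), the polymer without oligonucleotide at 40 nanomoles (Brush, 2 mice) and the polymer with a scrambled oligonucleotide at 5.3 mg/kg (pacDNA-Scr, 2 mice).

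Some libraries stood apart. In the deposit 6 of them are numbered apart from the rest, namely NT 7, NT 8, pacDNA-L9 5.3 C and D, pacDNA-L9 21.2 C and free L9 C. These 6 are here called the second deposited set and the rest the first set, names that no label gives. Of the 6, 5 listed all 37 mitochondrial genes at 0, all but free L9 C. A further 9 libraries of the first set carried short column names, namely 1 WT library whose column name matches the label of no single mouse (the unnumbered WT mouse), NT 6, all 3 of pacDNA-L9 42.4, free L9 A and B, Brush B and pacDNA-Scr B. Free L9 B, one of these, had counts for 14485 genes where every other library had 17844 or more, and 3745588 of its 16782911 counts were mitochondrial. What the short names record is not given, so at 42.4 mg/kg dose and naming cannot be told apart except through the other groups. By the counts of sex-linked genes WT held 4 females and 1 male, NT 4 and 4, and pacDNA-L9 42.4 3 females, and with sex as a covariate the same members were called in every comparison. In bulk muscle, fewer fibres of a type and less RNA per fibre cannot be told apart either.

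The quadriceps label held against the markers of skeletal muscle: the 5 genes Acta1, Ckm, Mb, Ryr1 and Cacna1s were above 0 in every library, with a summed level of 31246 (free L9 B) to 73751 CPM (free L9 A; counts relative to the TMM-adjusted library size) and Acta1 as the most abundant in 30 of 30. The 6 heart markers summed to 0.0496 to 1.12 CPM, and 2 to 5 of them were at 0 in each library. The counts of the alpha-cardiac chain Myh6, up to 103 CPM, therefore stood beside heart markers at or near 0.

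Myh3, Myh2, Myh1, Myh4 and Myh8 lie in that order on the plus strand of chromosome 11 (GRCm39). Myh3 (ENSMUSG00000020908) spans chr11:66969126-66993117, Myh2 (ENSMUSG00000033196) chr11:67061838-67088989 and Myh1 (ENSMUSG00000056328) chr11:67089132-67116631. Myh4 (ENSMUSG00000057003) spans chr11:67128336-67151274 and Myh8 (ENSMUSG00000055775) chr11:67167746-67199462. Myh6 (ENSMUSG00000040752, chr14:55179367-55205887) and Myh7 (ENSMUSG00000053093, chr14:55208141-55232084) are neighbours on the minus strand of chromosome 14, and Myh7b (ENSMUSG00000074652) lies at chr2:155453096-155476234 on the plus strand.

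The fast and neonatal genes are close in coding sequence, yet few stretches of the length of a read are the same in another of them. The coding sequence of Myh1 was identical to that of Myh2 at 90.9% of aligned bases, to Myh4 at 90.1% and to Myh8 at 89.2%, and Myh7 and Myh6 were identical at 91.7%. Myh7b was the most distant, at 68.8% to 72% of bases shared with each of the other members. Of all 150-base windows of the transcript, the length of 1 read, the share found unchanged in another member was 2% for Myh1, 1.84% for Myh2, 0.517% for Myh4, 0.533% for Myh8, 5.51% for Myh7, 5.41% for Myh6 and 0% for Myh3 and Myh7b. The longest unchanged run was 268 bases in Myh1 and Myh2, 245 in Myh6 and Myh7 and 164 in Myh4 and Myh8. The 60 bases in which the 4 genes Myh1, Myh2, Myh4 and Myh8 differ most, coding bases 1836 to 1895 of the alignment, are shown to make visible what separates their counts, with capitals at the 30 positions where the 4 are not all the same. They lie at chr11:67099927-67099986 (Myh1, exon 15), chr11:67072109-67072168 (Myh2, exon 15), chr11:67139520-67139579 (Myh4, exon 14) and chr11:67180601-67180660 (Myh8, exon 16) on the plus strand of GRCm39.
Myh1: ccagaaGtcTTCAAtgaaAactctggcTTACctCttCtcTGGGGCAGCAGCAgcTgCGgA
Myh2: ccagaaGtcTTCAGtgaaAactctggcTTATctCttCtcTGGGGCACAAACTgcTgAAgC
Myh4: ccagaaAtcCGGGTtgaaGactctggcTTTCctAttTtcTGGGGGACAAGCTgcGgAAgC
Myh8: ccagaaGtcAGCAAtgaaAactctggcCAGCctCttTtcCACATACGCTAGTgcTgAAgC

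Per kilobase of all exons of a gene joined, a scale on which genes can be compared, the median level over the 30 libraries was 5840 CPM per kilobase for Myh4, 1205 for Myh1, 156 for Myh2, 5.98 for Myh7, 1.97 for Myh8, 1.36 for Myh6, 0.854 for Myh7b and 0.701 for Myh3. Per kilobase of the canonical transcript, which is shorter, the medians in the same order of genes were 6500, 1422, 198, 9.73, 3.91, 2.17, 0.931 and 0.762. On the scale of joined exons the order Myh4, Myh1, Myh2, with Myh7 below, held in 30 of 30 libraries. Below them the order varied. Myh7 stood above Myh8 in 23 libraries, Myh8 above Myh6 in 14, Myh6 above Myh7b in 22 and Myh7b above Myh3 in 19. The 8 genes together took 4.31% (NT 5) to 7.72% (NT 8) of all counts of a library, 5.45% ± 0.452 in WT (SD, n = 5) and 5.74% ± 1.11 in NT (SD, n = 8). Without NT 7 and NT 8, which list no mitochondrial counts, the NT mean was 5.38% (n = 6), below that of WT. The totals of NT 7 and NT 8, 21580582 and 21646307 counts, lay inside the range of the other NT libraries. The counts of the other NT libraries included 1084651 (NT 3) to 2084121 (NT 2) mitochondrial ones. Those of NT 7 and NT 8 included 0, so their shares are over a base that leaves such counts out. How far this moves the shares was not tested.

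**Figure D1:**
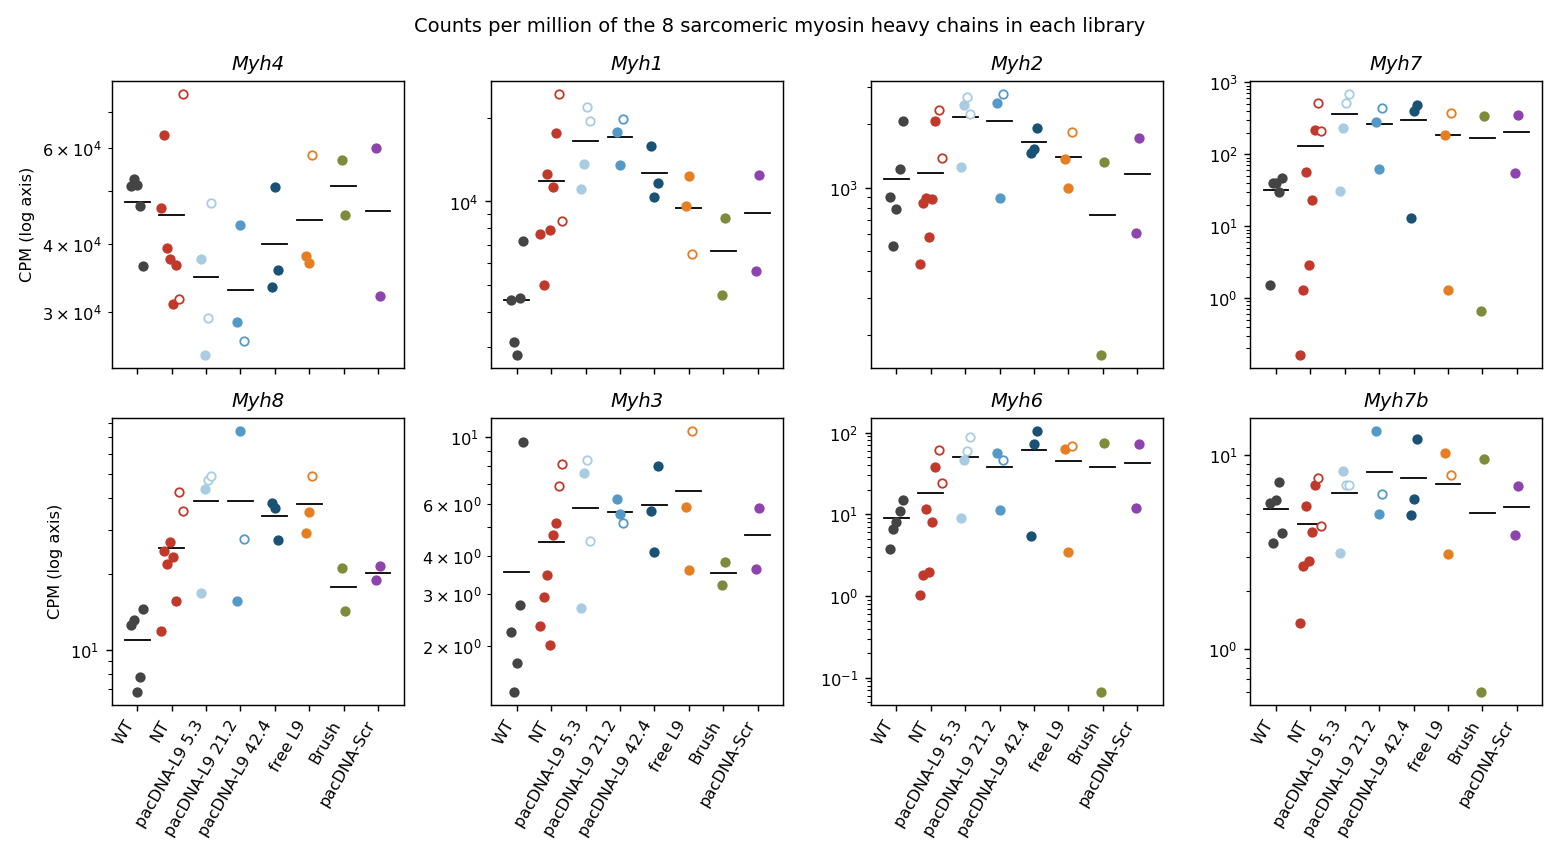
CPM (log axis) of the 8 myosin heavy chains in each library by group, with a line at the group mean. Open circles are the 6 libraries of the second deposited set. For Myh1, 7 of 8 NT libraries lie above every WT library, and for Myh7 the libraries of most groups spread over more than 1 order of magnitude.

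The IIb chain Myh4, of the fastest fibres, was the most abundant member in every library. It was at 51254, 52776, 51382, 46957 and 36494 CPM in WT 1 to 4 and the unnumbered WT mouse. NT libraries ran from 31009 to 75454 CPM with a median of 38490. The unnumbered WT library was the lowest of its group, 2 NT libraries (NT 2 and NT 8) exceeded every WT library, 2 (NT 5 and NT 7) fell short of every WT library, and the groups overlapped. The treated groups held 37506, 25035, 29267 and 47544 CPM (pacDNA-L9 5.3 A to D), 28815, 43321 and 26598 (21.2 A to C) and 33348, 50897 and 35811 (42.4 A to C). Free L9 A to C stood at 38006, 36860 and 58296 CPM, Brush A and B at 57008 and 45204, and pacDNA-Scr A and B at 59984 and 32071. Ordered by mean, the groups ran Brush, WT, pacDNA-Scr, NT, free L9, pacDNA-L9 42.4, 5.3 and 21.2, and no neighbours in that order differed by more than the larger of their SDs.

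The IIx chain Myh1, of fast fibres a step more oxidative than IIb, was at 4418, 3123, 2810, 4483 and 7227 CPM in WT 1 to 4 and the unnumbered WT mouse. In NT it ran from 5028 to 24303 CPM, with a median of 9873. Of the NT libraries 7 of 8 lay above the highest WT library, the unnumbered one, and NT 2 was the exception. The treated libraries held 11123, 13653, 21890 and 19438 CPM (pacDNA-L9 5.3 A to D), 17792, 13561 and 19831 (21.2 A to C) and 15849, 10338 and 11667 (42.4 A to C). All 10 stood above every WT library and inside the NT range, whose top is NT 7 of the second set. In the first set NT reached 17618 CPM, less than 21.2 A of the same set. Free L9 A to C held 9617, 12364 and 6479 CPM, Brush A and B 4597 and 8728, and pacDNA-Scr A and B 5631 and 12494, so free L9 C, Brush A and pacDNA-Scr A lay within the WT range, and Brush A was also below every NT library. By mean, the groups ran pacDNA-L9 21.2, 5.3, 42.4, NT, free L9, pacDNA-Scr, Brush and WT, again with no neighbours apart by more than the larger SD.

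The IIa chain Myh2, of fast oxidative fibres, was at 903, 530, 788, 1227 and 2063 CPM in WT 1 to 4 and the unnumbered WT mouse and at 433 to 2336 CPM in NT, with a median of 887. The unnumbered WT library, NT 6 and NT 7 were the high ones, and the groups overlapped throughout. Over all 30 libraries Myh2 ran from 160 CPM (Brush A) to 2783 CPM (pacDNA-L9 21.2 C), a 17.4-fold range against 8.65-fold for Myh1 and 3.01-fold for Myh4.

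As a share of the summed counts of the 8 members, Myh4 made up 90.6%, 93.4%, 93.4% and 89.1% in WT 1 to 4 and 79.6% in the unnumbered WT mouse. The Myh1 share in the same libraries was 7.81%, 5.53%, 5.11%, 8.50% and 15.8%. Over the 30 libraries the 95% Wilson interval of a share was at most 0.205 percentage points wide for Myh4 and 0.199 for Myh1, which covers counting error only. In NT the Myh1 share ran from 7.25% to 41.2% with a median of 20.4%, and its mean was 21.3% ± 11.5 (SD, n = 8) against 8.54% ± 4.28 in WT (n = 5). The difference of the means exceeded either SD, but 3 of 8 NT libraries, NT 2 (7.25%), NT 8 (9.95%) and NT 1 (14.0%), lay inside the WT range. Without the second deposited set the NT mean was 19.9% ± 8.73 (n = 6).

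The 3 pacDNA-L9 groups had mean Myh1 shares of 30.8%, 33.1% and 23.6% in order of dose. The Myh1 share was 22.3%, 32.9%, 40.2% and 27.7% in pacDNA-L9 5.3 A to D, 35.9%, 23.4% and 39.9% in 21.2 A to C and 31.2%, 16.3% and 23.3% in 42.4 A to C. It was 19.5%, 24.6% and 9.65% in free L9 A to C, 7.44% and 15.7% in Brush A and B and 8.49% and 26.7% in pacDNA-Scr A and B. All 10 pacDNA-L9 libraries lay above every WT library and inside the NT range, whose top (41.2%) is NT 7 of the second set. No test was run on shares. Without the second set, 2 libraries remained in each of pacDNA-L9 5.3, pacDNA-L9 21.2 and free L9, and their mean Myh1 shares were 27.6%, 29.7% and 22.1%, against 17.9% for free L9 with all 3. The mean Myh4 share was 89.2% ± 5.70 in WT, 76.4% ± 12.8 in NT, 64.3% ± 9.25 at 5.3, 62.2% ± 11.2 at 21.2 and 72.6% ± 7.40 at 42.4 mg/kg. It was 79.1% ± 6.98 in free L9, 86.7% ± 7.85 in Brush and 79.5% ± 15.4 in pacDNA-Scr. Myh2 took a mean of 2.16% in WT, 2.03% in NT, 4.15% at 5.3, 4.08% at 21.2 and 3.05% at 42.4 mg/kg, and the other 5 genes shared the small remainder.

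**Figure D2:**
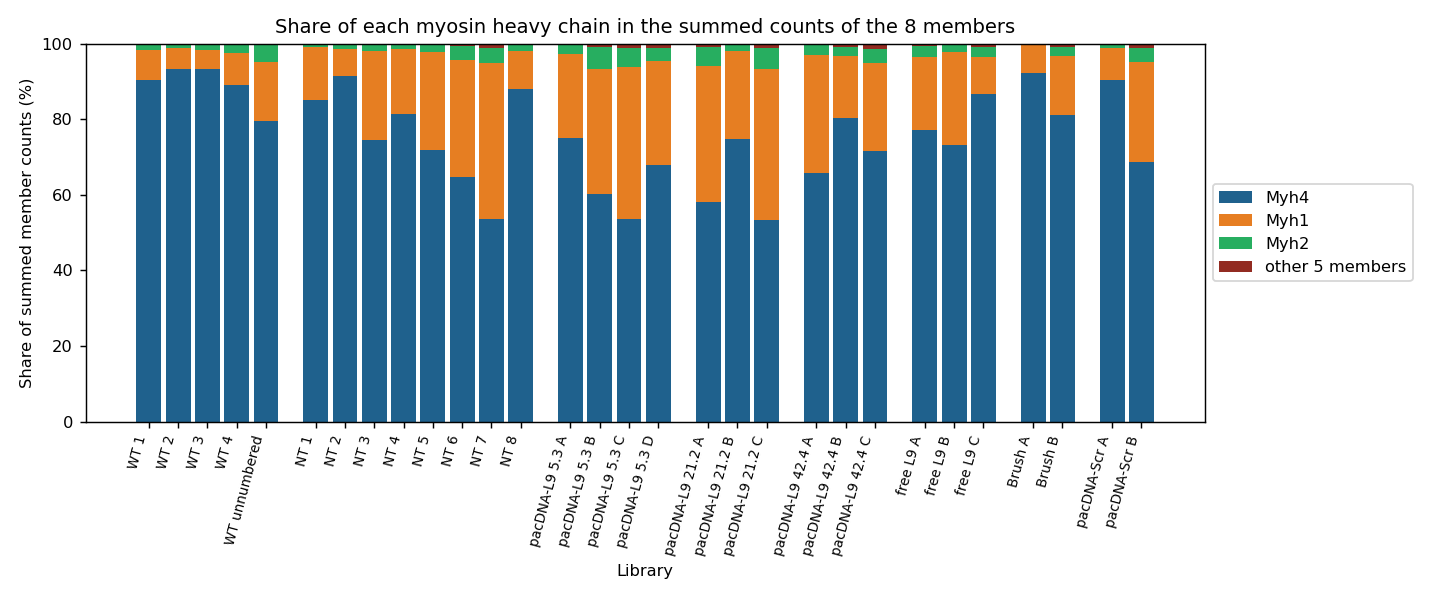
Share of Myh4, Myh1, Myh2 and the other 5 members in the summed counts of the 8 genes (percent, linear axis from 0), 1 bar a library. Myh4 is the largest share in every bar, and the Myh1 share ranges from 5.11% (WT 3) to 41.2% (NT 7).

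Untreated HSALR muscle was compared with WT muscle to ask which chains differ with the transgene. Of the 8 members 2 were called, and both were higher in NT, the IIx chain Myh1 and the neonatal chain Myh8. Over all genes tested 4.97% were called, 602 (3.44%) higher and 269 (1.54%) lower, and 21.5% had an unadjusted p under 0.05. The median log2 fold change was 0.68 over the 8 members and 0.03 over all genes. DESeq2 called the same 2 members.

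Myh1 was 2.69-fold higher in NT, a log2 fold change of 1.43 (SE 0.334), and 8 of 8 NT libraries lay above the WT median (adjusted p = 0.00941, edgeR's quasi-likelihood F-test, Benjamini-Hochberg adjusted over all genes, n = 8 and 5). Over 18 alternative settings its adjusted p ran from 0.000187 to 0.0563 and its log2 fold change from 1.10 to 1.57. It was called in 17 of them, the first set alone included, and in all 30 fits that left out 1 library (adjusted p 0.00378 to 0.0415). Within the first set alone, NT libraries ran from 5028 to 17618 CPM with a median of 9562.

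The neonatal chain Myh8, made around birth and in regenerating fibres, was at 12.5, 13.1, 6.77, 7.75 and 14.5 CPM in WT 1 to 4 and the unnumbered WT mouse. NT libraries ran from 11.8 to 42.4 CPM, with a median of 24.0. Of these, 7 of 8 lay above the highest WT library, and NT 1 was inside the WT range. The highest 2 NT values, 42.4 and 35.6 CPM, belonged to the second deposited set, and the other 6 libraries ran from 11.8 to 26.8 with a median of 22.6. Myh8 was 2.31-fold higher in NT, a log2 fold change of 1.21 (SE 0.341), with 7 of 8 NT libraries above the WT median (adjusted p = 0.0366, edgeR's quasi-likelihood F-test, Benjamini-Hochberg adjusted). The call depended on the libraries used and on the filter. It was made in 9 of 18 alternative settings, with log2 fold changes of 0.92 to 1.41 and adjusted p of 0.0036 to 0.186. With no filter on low counts the log2 fold change was 1.22 (adjusted p = 0.0698), in the first set alone 0.93 (adjusted p = 0.116), and with the set as a covariate 1.02 (adjusted p = 0.0607). Leaving out 1 library ended the call for WT 1 (adjusted p = 0.0623), WT 2 (0.0589), WT 3 (0.119), WT 4 (0.109), NT 4 (0.0516), NT 7 (0.0728) and NT 8 (0.0739), with log2 fold changes between 1.06 and 1.28 in these fits.

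**Figure D3:**
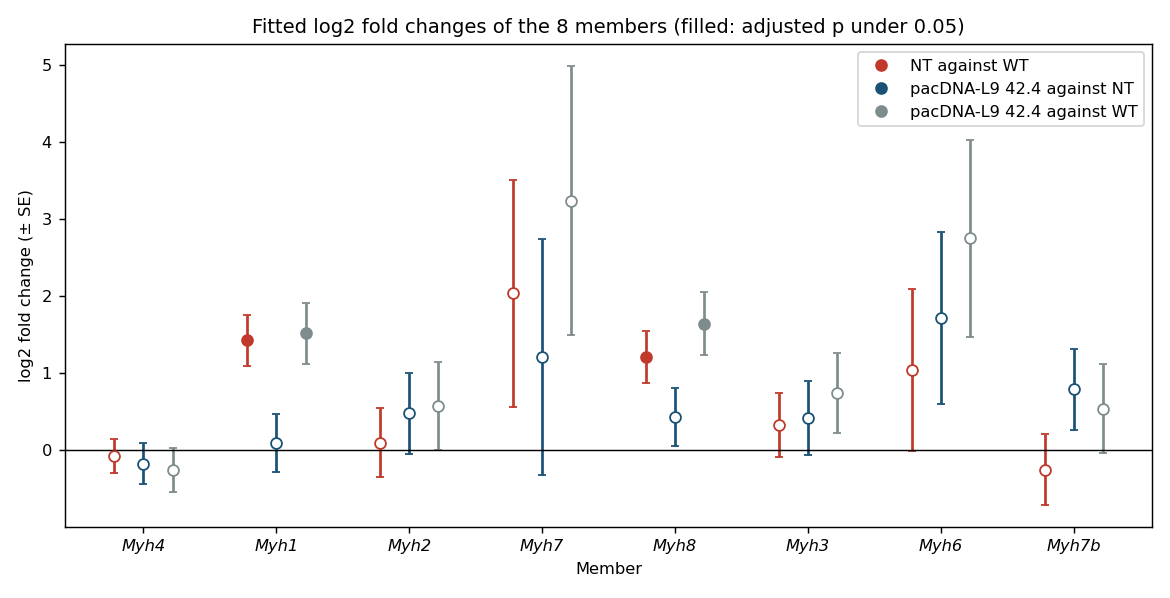
Fitted log2 fold change of each member in 3 comparisons, with bars of ± 1 SE (30 libraries in the fit) and filled points where the adjusted p is under 0.05. Myh1 and Myh8 are filled for NT against WT (1.43 and 1.21) and for pacDNA-L9 42.4 against WT (1.52 and 1.64).

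Since Myh1 and Myh8 were both called while their neighbour Myh4 was not, the upstream sequences of the 3 genes are shown. RefSeq start sites of GRCm38.p6 were matched for all 8 members (9 entries, since Myh7 has 2 starts). Each line gives the 250 bases before the start on the plus strand, at chr11:67199852-67200101 (Myh1), chr11:67237562-67237811 (Myh4) and chr11:67276874-67277123 (Myh8). Capitals mark a pair of runs common to the 3 genes and each TATAAA read on the strand shown.
Myh1: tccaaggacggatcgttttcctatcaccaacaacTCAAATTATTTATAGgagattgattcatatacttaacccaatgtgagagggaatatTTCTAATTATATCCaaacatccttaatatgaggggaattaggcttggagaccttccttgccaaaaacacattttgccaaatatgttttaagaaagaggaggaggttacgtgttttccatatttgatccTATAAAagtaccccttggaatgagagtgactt
Myh4: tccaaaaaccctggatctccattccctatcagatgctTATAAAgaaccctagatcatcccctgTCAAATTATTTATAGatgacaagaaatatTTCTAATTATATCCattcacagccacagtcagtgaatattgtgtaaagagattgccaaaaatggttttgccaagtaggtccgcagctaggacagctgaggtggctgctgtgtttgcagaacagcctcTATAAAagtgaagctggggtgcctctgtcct
Myh8: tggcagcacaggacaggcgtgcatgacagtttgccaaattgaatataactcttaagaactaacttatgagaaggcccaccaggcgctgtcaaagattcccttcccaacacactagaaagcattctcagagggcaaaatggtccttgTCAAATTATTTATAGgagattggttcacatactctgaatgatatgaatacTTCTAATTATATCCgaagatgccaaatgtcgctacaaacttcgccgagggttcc

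The run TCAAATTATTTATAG (15 bases, holding TATAAA on the reverse strand) began 216 bases before the start of Myh1, 187 before Myh4 and 104 before Myh8. The run TTCTAATTATATCC (14 bases) began 160, 158 and 54 bases before the starts of these genes, and it was also found in the window of Myh2. Searched on both strands, the first run was in 3 of 32851 RefSeq promoters of 300 bases (0.00913%), those of the 3 genes, and the second in 4 (0.0122%), those of the same genes and Myh2. Both runs were chosen after the sequences were seen, and Myh4, which was not called, holds them too. The shorter motifs were common: CANNTG was in 72.3% of promoters, CATTCC in 14.7% and TATAAA in 13.6%. Of the members, TATAAA was in the windows of Myh1, Myh2, Myh3, Myh4, Myh8 and Myh6, CATTCC in those of Myh1, Myh4, Myh6 and Myh7, and CANNTG in those of Myh3, Myh4, Myh8, Myh6, Myh7 and Myh7b.

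The embryonic chain Myh3, the first made in development, stayed low. It was at 2.23, 1.40, 1.76, 2.75 and 9.61 CPM in WT 1 to 4 and the unnumbered WT mouse, and NT libraries ran from 2.02 to 8.15 CPM with a median of 4.09. The unnumbered WT library was above every NT library and above every other library but free L9 C (10.5 CPM). In the treated groups Myh3 ran from 2.69 to 10.5 CPM, and its group means, from 3.51 (Brush) to 6.63 CPM (free L9), had no neighbours apart by more than the larger SD.

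The slow chain Myh7, of type I fibres, had the widest range of the members. It was at 1.54, 40.0, 39.6, 29.5 and 46.8 CPM in WT 1 to 4 and the unnumbered WT mouse, and at 0.163 to 522 CPM in NT, with a median of 39.8. NT 1, with 3 counts, NT 2 and NT 4 were among the lowest of all libraries, while NT 3, NT 6, NT 7 and NT 8 exceeded every WT library. The treated libraries held 30.8, 230, 519 and 686 CPM (pacDNA-L9 5.3 A to D), 277, 63.3 and 445 (21.2 A to C) and 13.1, 395 and 484 (42.4 A to C). Free L9 A to C held 184, 1.29 and 376 CPM, Brush A and B 0.666 and 341, and pacDNA-Scr A and B 55.6 and 349. The groups pacDNA-L9 21.2 and pacDNA-Scr lay wholly above WT, and all other pairs of groups overlapped.

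By group mean Myh7 ran pacDNA-L9 5.3, 42.4, 21.2, pacDNA-Scr, free L9, Brush, NT and WT, from 366 ± 293 CPM (SD, n = 4) to 31.5 ± 17.8 (n = 5), and no neighbours differed by more than the larger SD. For NT against WT the fitted log2 fold change was 2.03 (SE 1.48), with 4 of 8 NT libraries above the highest WT library, and the test was not passed (adjusted p = 0.457, edgeR's quasi-likelihood F-test, Benjamini-Hochberg adjusted). The sign changed to -0.72 in the first set without the short-named libraries, to -0.39 with short naming as a covariate in the first set and to -0.89 for WT 1 to 4 against NT 1 to 4, and leaving out 1 library gave 1.21 (without NT 7) to 2.22.

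The alpha-cardiac chain Myh6 lies next to Myh7 and is the main chain of the adult mouse ventricle. It was at 3.71, 6.68, 8.12, 11.1 and 15.1 CPM in WT 1 to 4 and the unnumbered WT mouse and at 1.03 to 60.5 CPM in NT, with a median of 9.89. NT 6, NT 7 and NT 8 exceeded every WT library, as for Myh7, and 3 (NT 1, NT 2 and NT 4) lay below every WT library. Over the 30 libraries it ran from 0.0666 CPM (Brush A, 1 count) to 103 CPM (pacDNA-L9 42.4 C). The slow-tonic chain Myh7b ran from 0.599 CPM (Brush A, 9 counts) to 13.3 CPM (pacDNA-L9 21.2 A), was at 3.54 to 7.25 CPM in WT and at 1.36 to 7.62 CPM in NT, and neither gene was called in any comparison.

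Each treated group was compared with NT to ask what the treatment adds, and these comparisons share the 8 NT mice. No member was called in any of the 6, by edgeR's quasi-likelihood F-test (Benjamini-Hochberg adjusted) or by DESeq2, and at an unadjusted p under 0.05 the count of members was 0 in each. Over all genes edgeR called 0% for pacDNA-L9 5.3, 0.0514% for 21.2, 2.57% for 42.4 (1.92% higher and 0.651% lower), 0.126% for free L9, 0% for Brush and 0% for pacDNA-Scr. At an unadjusted p under 0.05 the share of all genes was 1.43% (250 genes) for 5.3, 1.66% for 21.2, 13.1% for 42.4, 9.37% for free L9, 1.24% (217) for Brush and 1.04% (182) for pacDNA-Scr, and DESeq2 called 1 gene for 5.3, 320 for Brush and 312 for pacDNA-Scr. The median log2 fold change of the 8 members against NT was 0.58 at 5.3, 0.72 at 21.2 and 0.46 at 42.4 mg/kg, 0.55 for free L9, -0.08 for Brush and 0.06 for pacDNA-Scr. The matching medians over all genes were 0.03, 0.01, -0.06, -0.0016, -0.04 and -0.03.

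The 450 genes called at 42.4 mg/kg became 63 without pacDNA-L9 42.4 B and 681 without free L9 B, and the members stayed uncalled in every fit that left out 1 library. For the 9 genes called at 21.2 mg/kg such fits gave 2 (without 21.2 B or without 21.2 C), 5 (without NT 1, NT 2, NT 4, NT 5 or NT 8) and 16 (without free L9 B). The 22 genes called for free L9 became 13 without NT 2 or NT 4, 14 without NT 3, NT 6 or NT 8, 242 without free L9 A, 38 without free L9 B and 314 without free L9 C. At 5.3 mg/kg 1 gene was called without pacDNA-L9 21.2 A.

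At the highest dose the values of the members called in NT stayed apart from WT. Myh8 was at 38.5, 36.7 and 27.3 CPM in pacDNA-L9 42.4 A to C, 34.1 ± 5.98 (SD, n = 3) against 25.3 ± 9.93 in NT (n = 8). All 3 were above every WT library and inside the NT range, whose top is NT 7 of the second set. The 6 first-set NT libraries ran from 11.8 to 26.8 CPM, and all 3 lay above them. Against NT the log2 fold change of Myh8 was 0.43 (SE 0.378, adjusted p = 0.635), and 3 of 3 libraries lay above the NT median. At lower doses Myh8 was at 16.8, 43.4, 47.4 and 49.2 CPM (5.3 A to D) and 15.6, 73.9 and 27.5 (21.2 A to C), and C and D at 5.3 and C at 21.2 belong to the second set. Free L9 A to C held 29.2, 35.1 and 49.2 CPM, Brush A and B 21.1 and 14.3, and pacDNA-Scr A and B 18.9 and 21.5. The group order by mean was pacDNA-L9 5.3, 21.2, free L9, pacDNA-L9 42.4, NT, pacDNA-Scr, Brush and WT. Only Brush and WT, at its end, differed by more than the larger SD (a gap of 6.75 CPM), and this was the only such gap among neighbours for any of the 8 genes. Brush held 2 mice, and Brush B lay inside the WT range (up to 14.5 CPM).

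Myh6 at 42.4 mg/kg was at 5.35, 72.0 and 103 CPM in A to C. B and C exceeded every NT library and A lay below the NT median. The log2 fold change against NT was 1.71 (SE 1.11), higher in 2 of 3 libraries than the NT median, and the test was not passed (adjusted p = 0.483, edgeR's quasi-likelihood F-test, Benjamini-Hochberg adjusted). Myh7 in the same mice gave 1.21 (SE 1.53), again with 2 of 3 above the NT median (adjusted p = 0.782). Over 13 alternative settings the log2 fold change ran from 0.63 to 2.51 for Myh6 and from 0.66 to 2.56 for Myh7. Leaving out pacDNA-L9 42.4 C gave 1.06 and 0.65, and leaving out NT 7 gave 2.27 and 2.02.

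Against WT, pacDNA-L9 42.4 was compared to ask what still differs after the highest dose. Of the 8 members 2 were called, Myh1 and Myh8, both higher, where 7.9% of all genes were called (5.1% higher and 2.8% lower), and DESeq2 called the same 2. At an unadjusted p under 0.05 the count was 3 members, with Myh6, and 19.7% of all genes. The number of genes called, 1384, was 702 without pacDNA-L9 42.4 B. Myh1 was 2.86-fold higher, a log2 fold change of 1.52 (SE 0.397), with 3 of 3 libraries above the highest WT library (adjusted p = 0.0156, edgeR's quasi-likelihood F-test, Benjamini-Hochberg adjusted). Myh8 was 3.12-fold higher, 1.64 (SE 0.409), also in 3 of 3 (adjusted p = 0.011).

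All 3 treated libraries of these calls carry short names. With short naming as a covariate in the first set Myh1 gave 0.77 (adjusted p = 0.157, range over 14 alternative settings 0.00351 to 0.157) and was called in the other 13, while Myh8 was called in 14 of 14 (adjusted p 0.00176 to 0.0434). Without pacDNA-L9 42.4 A Myh1 gave 1.31 (adjusted p = 0.0918), and without pacDNA-L9 42.4 B Myh8 gave 1.59 (adjusted p = 0.0528). Myh3 was called only in the fit without the unnumbered WT library (log2 fold change 1.54, adjusted p = 0.0315). Myh6 at 2.75 (SE 1.28, adjusted p = 0.23) and Myh7 at 3.24 (SE 1.75, adjusted p = 0.324) did not pass, with 2 of 3 libraries of each above the highest WT library, and with short naming as a covariate in the first set they were at 0.29 and 0.27. Whether any member differed less from WT at 42.4 mg/kg than in NT was tested only as the difference between the treated group and NT given above. The median log2 fold change was 1.13 over the 8 members and -0.02 over all genes.

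Within groups the members moved in a pattern. For each of the 28 pairs the deviations of log2 CPM from the group mean were correlated over the 24 libraries of the first set, with 100000 permutations within groups, and the smallest p these could give was 1e-05. After Benjamini-Hochberg adjustment over the 28 pairs 15 of Pearson's correlations had p under 0.05, 12 positive and 3 negative. The 3 negative ones all involved Myh4, with Myh1, Myh3 and Myh2. Each pair is also given over the 13 long-named libraries of groups with at least 2 of them, since 5 of the 6 groups with short-named libraries hold fewer than 3 of them, too few for a value of their own. In a group of 2 libraries the deviations are equal and opposite, so its points are not separate values. The 2 libraries farthest from the median were picked on the gene named first in each pair.

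Myh1 and Myh4 moved oppositely, with Pearson's r of -0.799 (permutation p = 0.0002, adjusted 0.0014) and Spearman's rho of -0.821 (p = 6e-05, adjusted 0.000392). Without the 2 libraries farthest from the median r was -0.78, and in the long-named libraries -0.763. Libraries with more IIx counts than their group mean tended to have fewer IIb counts. Myh1 and Myh2 moved together, with r = 0.736 (permutation p = 0.00162, adjusted 0.00435) and rho = 0.765 (p = 0.00177, adjusted 0.00413). Without the 2 farthest libraries r was 0.788, and in the long-named ones 0.477.

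The slow and cardiac neighbours Myh7 and Myh6 were the closest pair, with r = 0.937 (permutation p = 1e-05, adjusted 0.00014) and rho = 0.939 (p = 1e-05, adjusted 0.000187). This held without the 2 farthest libraries (r = 0.941) and in the long-named ones (r = 0.906). Brush A and NT 1 were the lowest for both genes within their groups, in the case of Brush a group of only 2 libraries. Myh6 and Myh7b gave r = 0.916 (permutation p = 0.00032, adjusted 0.00179) and rho = 0.901 (p = 7e-05, adjusted 0.000392), with r of 0.848 without the 2 farthest and 0.892 in the long-named libraries. The neonatal chain Myh8 moved with no other member, with r from -0.242 (Myh7b) to 0.189 (Myh3) and adjusted permutation p of 0.327 or more for either coefficient.

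**Figure D4:**
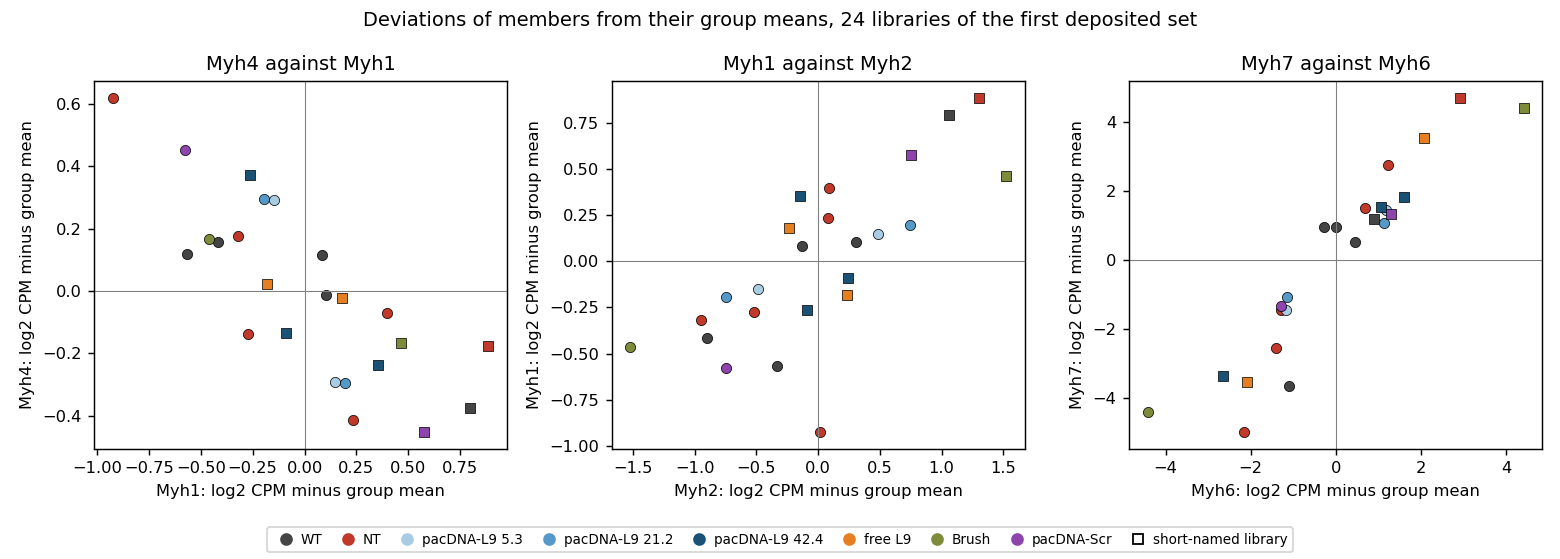
Deviation of log2 CPM from the group mean for 3 pairs of members over the 24 first-set libraries, coloured by group, with squares for the 9 short-named libraries. Myh4 falls as Myh1 rises (r = -0.799), and Myh7 rises with Myh6 (r = 0.937).

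Among 9554 genes compared over the same 24 libraries, the genes whose deviations were most like those of Myh7 were the slow troponins Tnnc1 (r = 0.982), Tnni1 (0.967) and Tnnt1 (0.961). Those most like Myh2 were Myoz2 (0.929), which encodes a Z-disc protein of slow fibres, Ldhb (0.92), the heart-type lactate dehydrogenase subunit, and the pseudogene Ldhb-ps (0.904). Myh1 was nearest to the tropomyosin gene Tpm2 (0.855), Ppa2 (0.849) and the small heat shock protein gene Hspb6 (0.849). Myh4 was nearest to Oga (0.834) and Eloa (0.833). Myh3 was nearest to the malate dehydrogenase Mdh1 (0.884), Smtnl1 (0.856) and Acot13 (0.846). The values for Myh8 were the lowest of these genes, with Cgref1 (0.742), Soat1 (0.718) and Ankrd13a (0.704).

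The partners that share the thin and thick filaments with each chain were read beside it. Of 10 slow-fibre partners 0 were called for NT against WT by edgeR or by DESeq2 (0 at an unadjusted p under 0.05), with a median log2 fold change of 0.75 and 9 of 10 positive. In the comparison of pacDNA-L9 42.4 with NT 0 were called by either tool (2 unadjusted), the median was 1.39 and 10 of 10 were positive. Against the same 8 NT mice the median was 1.28 at 5.3 and 0.93 at 21.2 mg/kg. It was 0.97 in free L9 and 0.93 in pacDNA-Scr, with 10 of 10 positive in each of these groups. In Brush it was 0.73 (8 of 10). Either tool called 0 partners in each of these comparisons. They share their NT mice, so a common sign is no separate evidence, and it was not tested. Slow troponin T Tnnt1 gave 1.13 for NT against WT and 1.34 for pacDNA-L9 42.4 against NT. In the same order slow troponin I Tnni1 gave 0.98 and 1.70. The slow light chain Myl2 gave 0.38 and 1.65, and Myl3 gave 1.46 and 1.80. Their summed level was lowest in Brush A (115 CPM), where Myh7 was at 0.666 CPM, and highest in pacDNA-L9 42.4 C (2443 CPM), where Myh7 was at 484 CPM, though Myh7 itself was lowest in NT 1 and highest in pacDNA-L9 5.3 D. The median of the summed level was 463 CPM, with none of the 10 at 0 and Atp2a2 the most abundant in 29 of 30 libraries.

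Of 12 fast-fibre partners edgeR called 0 for NT against WT (2 unadjusted, where 21.5% of all genes passed unadjusted, median -0.08) and 0 for pacDNA-L9 42.4 against NT (1 unadjusted, median -0.13, 12 of 12 negative). DESeq2 called 1 in each, Tnnc2, higher in the first and lower in the second. Only 2 of 8 NT libraries lay above the highest WT library for Tnnc2. In the first set it was at no more than 0.264 CPM in NT and 0.371 in WT, and in the second set NT reached 7047 CPM, so these calls rest on NT 7 and NT 8. Fast troponin T Tnnt3 gave -0.04 and -0.18, fast troponin I Tnni2 -0.11 and -0.04 and the fast light chain Mylpf -0.29 and -0.19. Like Myh4, with -0.08 (SE 0.223, adjusted p = 0.886) for NT against WT, none of them passed the test. Their summed level ran from 64837 to 132770 CPM, with Atp2a1 the most abundant in 29 of 30 libraries.

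Of 15 tested thick-filament partners 2 were higher in NT than in WT, Mybph (1.33, adjusted p = 0.00277, above the highest WT library in 7 of 8) and the fast-fibre M-band gene Myom2 (0.62, adjusted p = 0.00578, 8 of 8), and the median was 0.13. At 42.4 mg/kg the ubiquitin ligase genes Trim63 (2.42, adjusted p = 1.16e-05) and Fbxo32 (1.59, adjusted p = 0.00549) were higher than in NT in 3 of 3 libraries, with a median of 0.15 over the list. DESeq2 called 4 higher in NT than in WT, and 2 higher and 1 lower at 42.4 mg/kg than in NT. Over all genes edgeR called 4.97% and 2.57% in these comparisons. The summed level ran from 21192 to 38146 CPM, with Ttn the most abundant in every library. Of 4 tested other myosin heavy chains, which are non-muscle and smooth muscle chains, 0 were called in either comparison by edgeR or DESeq2 (2 and 1 unadjusted, medians -0.12 and 0.27), with summed levels of 180 to 293 CPM and Myh9 highest in 16 libraries. Myh13 and Myh15 did not pass the filter.

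Among 21 regulators of myosin genes 1 was higher in NT than in WT, the MCAT-binding factor Tead4 (1.90, adjusted p = 3.56e-05, 8 of 8 libraries above the highest WT library), with a median of 0.07. Over all genes 4.97% were called in this comparison (3.44% higher), so 1 of 21 is about that share and no result on the list. At 42.4 mg/kg, where 2.57% of all genes were called (1.92% higher and 0.651% lower), 2 were higher than in NT and 1 lower (median -0.08). These were Ppargc1a, the coactivator of oxidative genes (1.46, adjusted p = 0.00133, 3 of 3 above the highest NT library), Myog, the myogenic factor of differentiation (1.82, adjusted p = 0.0481, 2 of 3) and Tead1 (-0.95, adjusted p = 0.0123, 3 of 3 below the lowest NT library). DESeq2 called 1 higher for NT against WT, and 2 higher and 3 lower at 42.4 mg/kg. The 21 genes summed to 2433 to 3568 CPM, with Mef2c the most abundant in every library. Adjusted p-values of the lists come from edgeR's quasi-likelihood F-test, as for the members.

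Markers of immature or denervated fibres were read beside Myh8 and Myh3. Of 12, 2 were higher in NT than in WT, Ncam1 (1.26, adjusted p = 0.00266, 8 of 8 libraries above the highest WT library) and Runx1 (1.63, adjusted p = 9.48e-05, 8 of 8), and 1 was lower, the fetal muscle actin Actc1 (-4.66, adjusted p = 8.59e-06, 8 of 8 below the lowest WT library), with a median of 0.65. The size of the Actc1 change leans on WT 1, at 3185 CPM where the WT median was 394 and the lowest WT library had 195, against 16.3 to 78.3 CPM in NT. At 42.4 mg/kg only Runx1 was called against NT (1.05, adjusted p = 0.0218, 3 of 3), with a median of 0.46. By DESeq2 3 were higher and 1 lower in the first comparison and 1 higher in the second. Of all genes edgeR called 4.97% in the first and 2.57% in the second. Summed levels ran from 2048 to 6284 CPM, with 0 to 2 of the 12 at 0 and Des highest in 29 libraries. The part of such fibres in the Myh8 values was not tested.

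Markers of other cell types were read too, beside 4.97% of all genes called for NT against WT and 2.57% for pacDNA-L9 42.4 against NT. The macrophage markers, 5 genes, summed to 27.8 (WT 2) to 115 CPM (pacDNA-L9 42.4 B), with medians of 35.3 in WT, 43.8 in NT, 72.6 at 5.3, 95.8 at 21.2 and 107 at 42.4 mg/kg, 33.5 in free L9, 81.4 in Brush and 57.1 in pacDNA-Scr, and C1qa the most abundant in 13 of 30 libraries. Cd68 was higher in NT than in WT (1.51, adjusted p = 0.00225, 8 of 8 above the highest WT library), and at 42.4 mg/kg Cd68 (2.11, adjusted p = 0.000172), C1qa (1.35, adjusted p = 0.00721) and Csf1r (0.90, adjusted p = 0.00678) were higher than in NT in 3 of 3 libraries (list medians 0.16 and 1.35). DESeq2 called 2 macrophage markers higher in the first comparison and 4 in the second. At 21.2 mg/kg 1 was called higher than in NT by both tools, Cd68 (1.60, adjusted p = 0.0426), which DESeq2 also called in Brush. The 5 fat cell markers, summing to 12.3 (NT 2) to 1285 CPM (NT 4) with Cfd highest in every library, were not called in either comparison by edgeR or DESeq2 (0 unadjusted in each, medians -0.88 and -1.73). Of 4 smooth muscle markers Acta2 was lower in NT than in WT (-0.75, adjusted p = 0.0361, 6 of 8 below the lowest WT library, median -0.52, with 1 higher and 1 lower by DESeq2) and edgeR called 0 at 42.4 mg/kg (2 unadjusted and 1 by DESeq2, Cnn1, median 0.09), with sums of 83.3 to 254 CPM.

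Of the skeletal muscle markers myoglobin, Mb, was higher in NT than in WT (1.62, adjusted p = 0.00287, 8 of 8 above the highest WT library, median 0.14) and 0 of 5 were called at 42.4 mg/kg by edgeR or DESeq2 (0 unadjusted, median -0.07). Of the heart markers only Ryr2 was tested, and it was called in neither comparison by edgeR or DESeq2 (0 unadjusted in each, -0.87 and -0.36). The part of other cells in the member values was not tested.

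Genes on the opposite strand separate the deposited sets. The noncoding gene Myhas (chr11:67102082-67128720 of GRCm39, minus strand) overlaps 907 bases (10.2%) of the exons of Myh1 and 383 (5.78%) of those of Myh4. It was at 3.65 to 12.7 CPM in the 24 first-set libraries and at 1468 to 4073 CPM in the 6 second-set libraries. Its counts were 0.0391% to 0.243% of those of Myh1 in the first set and 15.3% to 22.8% in the second. Mhrt, which overlaps 2462 bases (24.6%) of the exons of Myh7, had 0 to 7 counts in the first set and 1211 to 4006 in the second, where they were 28.7% to 35.2% of the Myh7 counts. 9430073C21Rik, which overlaps 237 bases of Myh2, had 8 to 83 and 2101 to 6852 counts. No value of the 2 sets overlapped for any of the 3 genes.

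The strand options of the counting are not given, so counts of Myhas, Mhrt and 9430073C21Rik cannot be told apart from counts of the myosin genes they overlap, and the level of Myh1, Myh4, Myh7 and Myh2 in the second set is uncertain to that extent. With the Myhas counts added to Myh1, the same members were called in each comparison. The mean Myh1 share then was 32.7% in place of 30.8% at 5.3 mg/kg, 34.5% in place of 33.1% at 21.2 mg/kg and 21.9% in place of 21.3% in NT.

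**Figure D5:**
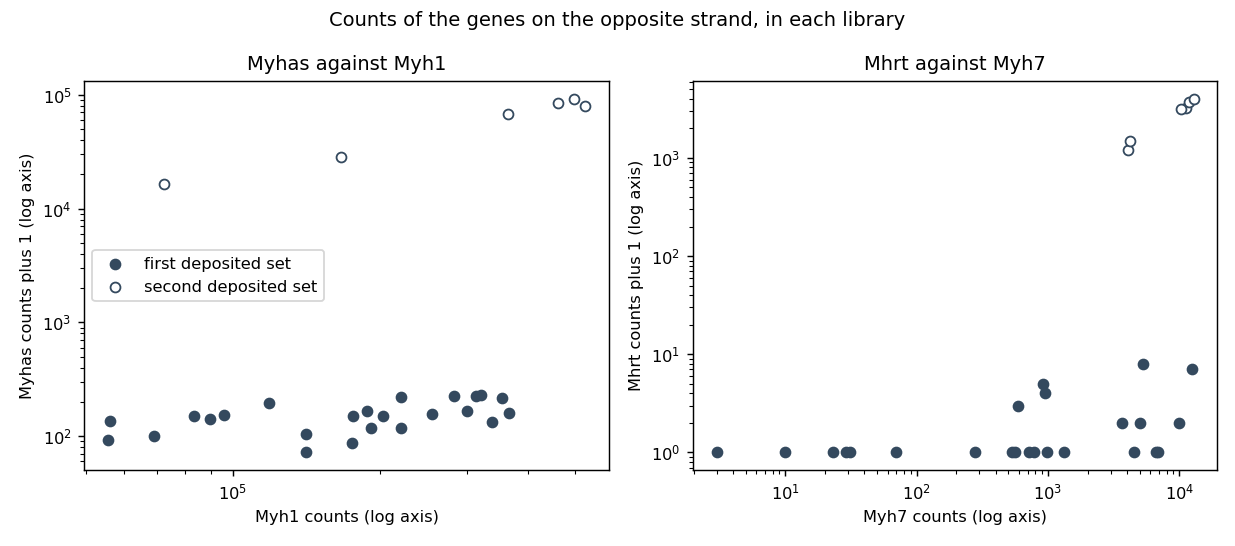
Counts of Myhas against Myh1 and of Mhrt against Myh7 in each library (log axes, with 1 added to the opposite-strand counts). The 6 second-set libraries (open) lie above all 24 first-set libraries (filled) in both panels.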

How the data were processed

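The authors enriched poly(A) RNA, sequenced paired ends of 150 bases, trimmed the reads and mapped them to GRCm39, with HISAT2 2.0.5 named in the labels, and deposited raw counts per Ensembl gene without normalization. Their counting options and annotation release are not given. Identifiers were joined to GENCODE vM39. Counts of all 30 libraries were fitted with edgeR 4.0.16 in R 4.3.3 (filterByExpr by group, 17518 genes; TMM; 1 coefficient for each of 8 groups; robust quasi-likelihood F-tests; Benjamini-Hochberg adjustment over all genes; called at adjusted p under 0.05). The SE of a log2 fold change is its absolute value over the root of F. DESeq2 1.42.0 served as an alternative, and MAFFT 7.526 aligned coding sequences. CPM follow TMM. Shares are of summed member counts. Likeness and member pairs used log2 CPM with a prior count of 2, minus group means, over 24 libraries, for likeness among genes tested with a mean of at least 5 CPM. Called genes of each list were named, at most 6 a list, with 7 fixed partners. The lists were other myosin heavy chains, thick-filament, slow-fibre and fast-fibre partners, regulators, immature fibre, heart, smooth muscle, fat cell, macrophage and skeletal muscle markers. The members and lists were chosen with earlier results of these data known. Items withheld for evaluation are not reported here and were left out of the lists. Alternatives changed scaling, filter, tool, libraries and covariates. The fit was checked on simulated data.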

Additional observations from a re-analysis of the deposited data

Results flagged for a closer look

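In each group of 4 to 10 mice the gap between the highest or lowest CPM of a member, or share of Myh4, Myh1 and Myh2, and the nearest other mouse was compared with the whole range (Dixon's ratio). Of 33 sets, 24 of CPM and 9 of shares, 2 had a library far from the others, both of CPM. Chance flags about 1 in 20 groups. Myh7 in NT 7, a library of the second deposited set, was at 522 CPM where the nearest NT library had 216 CPM (ratio 0.586, n = 8). Myh3 in the unnumbered WT mouse, a short-named library, was at 9.61 CPM where the nearest WT library had 2.75 CPM (ratio 0.836, n = 5).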

How the results depend on the processing

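Of the 2 members called for NT against WT, Myh1 and Myh8, the number called was 2 in 9 of 18 alternative settings. It was 1, always Myh1, with no filter on low counts, in the first set only, with the set as a covariate, with short naming as a covariate in the first set, for WT 1 to 4 against NT 1 to 4 unblocked, and, in settings chosen after seeing the data, without the 9 short-named libraries, in the first set without them and without the 5 libraries listing no mitochondrial counts. Leaving out 1 library gave 1 to 2. For pacDNA-L9 42.4 against WT the number was 2 in 13 of 14 settings, 1 with short naming as a covariate and 1 to 3 leaving out 1 library. The log2 fold change of Myh7 for NT against WT (2.03) became -0.39 with short naming as a covariate, -0.89 unblocked and -0.72 in the first set without the short-named libraries. For pacDNA-L9 42.4 against WT the naming covariate took Myh6 from 2.75 to 0.29 and Myh7 from 3.24 to 0.27. The mean share of Myh2 in free L9 was 2.03% per kilobase against 2.5% as counted. The cause of these changes was not tested.

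With a replicate block of WT 1 to 4 and NT 1 to 4, 0 members were called (Myh1 1.10, adjusted p = 0.0563, and Myh8 1.08, adjusted p = 0.125) and Myh7 was at -2.59. The labels do not say that the replicate numbers pair mice, and not every pair correlated above 0.1, so the numbers were not taken as pairs: correlations of the same number were 0.164, -0.0468, 0.113 and 0.192, and numbers 1, 3 and 4 correlated best with their own number, 2 with 4. The block was planned with 5 pairs and run with 4, since 1 WT column name matches the label of no single mouse and so has no number. The column names of WT 3 and NT 4 share the mark G_3, and those of WT 4 and NT 5 the mark H_3. What these marks record is not given, and pairs by them were not run.

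The counts of genes called moved too. For NT against WT they were 871, 1311 with only the groups compared, 1973 by DESeq2 and 636 to 1349 leaving out 1 library. At 5.3 mg/kg 0 became 1 by DESeq2 and 0 to 1 leaving out 1 library. At 21.2 mg/kg 9 became 5 with at least 10 counts in every library, 2 in the first set with or without the naming covariate, 2 without the short-named or the 5 libraries without mitochondrial counts, 0 with only the groups compared or in the first set without short names, 16 by DESeq2 and 2 to 16 leaving out 1 library. At 42.4 mg/kg 450 became 110 with the naming covariate, 1370 by DESeq2 and 63 to 681 leaving out 1 library. For free L9 22 became 14 without a filter, 7 with at least 10 counts, 354 in the first set, 165 with the set and 10 with sex as a covariate, 0 with the naming covariate or only the groups compared, 46 by DESeq2, 62 without short names, 397 without the 5 libraries and 13 to 314 leaving out 1 library. Brush went from 0 to 1 with sex as a covariate and 320 by DESeq2, pacDNA-Scr from 0 to 1 without short names and 312 by DESeq2, and pacDNA-L9 42.4 against WT from 1384 to 898 with the naming covariate and 702 to 1997 leaving out 1 library. Groups whose libraries are all left out by a setting could not be fitted in it, such as pacDNA-L9 42.4 without short names. Without the short names only 1 library each was left of free L9 (free L9 C, of the second set), Brush and pacDNA-Scr, so the 62 genes for free L9 and the 1 for pacDNA-Scr rest on a single library and say nothing of stability. The planned comparison of protein sequences was not run, since no protein table was given. At the totals of these libraries the lowest members rest on 1 to 10 counts in Brush A and 3 in NT 1.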
